A study of Homo sapiens with 24 samples.

Results

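The 10 genes described here are feedback regulators of mitogen-activated protein kinase (MAPK) signalling, chosen by name: the dual-specificity phosphatase genes DUSP1, DUSP2, DUSP4, DUSP5, DUSP6 and DUSP10, the Sprouty genes SPRY1 and SPRY2, and the Spred genes SPRED1 and SPRED2. They were measured in Nalm6, a human B-cell precursor acute lymphoblastic leukaemia line, by RNA-sequencing of 24 libraries in 8 groups of 3 biological replicates. Cells carried a lentiviral shRNA against a nonspecific sequence (shNS), G9a (shG9a), GLP (shGLP) or HP1γ (shHP1γ), and each population was exposed for 8 h to 100 nM of the synthetic glucocorticoid dexamethasone (dex) or to its vehicle ethanol. The groups therefore share the cell line and the viral vector, and the cells were puromycin-resistant populations rather than clones. Whether the replicates of a depletion came from separate transductions is not given in the sources used here. G9a (gene EHMT2) and GLP (EHMT1) are paired histone H3 lysine 9 methyltransferases, and HP1γ (CBX3) is a chromodomain protein that reads methyl-lysine. The comparisons asked whether dex changed each transcript and whether its level depended on G9a, GLP or HP1γ.

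MAPK pathways run as cascades in which a kinase phosphorylates and activates the next, ending in ERK, JNK or p38. Many of their brakes are encoded by genes that the pathway itself switches on, so that signalling raises the level of its own inhibitors. DUSP proteins remove the activating phosphates from the terminal kinases, whereas Sprouty and Spred proteins act further upstream, at the step from receptors to Ras and Raf. In B-cell precursors, ERK signalling carries survival and differentiation signals from the pre-B-cell receptor and cytokine receptors, and glucocorticoids kill these cells.

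The count table lists 64519 RefSeq accessions, 21 of them for the 10 genes. Of the 10167 accessions that passed a filter of more than 1 CPM (counts scaled to the library total) in at least 2 libraries, 12 belonged to the 10 genes, so that every gene had at least 1 tested transcript. SPRY1 and SPRY2 had 2 tested accessions each. The 9 untested accessions held little or nothing: 4 of them (DUSP6 NM_022652, DUSP10 NR_111940, SPRY1 NM_199327 and SPRY2 NM_001318538) were at 0 in all 24 libraries, and SPRY1 NM_005841 had the highest mean among the rest, at 5.54 counts. An accession at 0 says nothing of the gene, because genes with several accessions, such as CD22 and CD79B, were also at 0 throughout. Levels of different genes were therefore not compared with each other.

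Library totals ran from 9289533 to 14387770 counts. Among B-cell precursor markers, RAG1, IGLL1 and CD79A were detected in all 24 libraries, whereas CD22, CD79B, PAX5, EBF1 and VPREB1 had accession sums at or near 0. All 4 T-cell, all 3 erythroid and all 4 epithelial markers were at or near 0, as were the myeloid markers CD14 and CSF1R. The summed myeloid level, almost all of it LYZ, was 20.6 to 33.9 CPM in the 6 shGLP libraries and at most 11.8 CPM in any other, and the summed B-cell precursor level, almost all of it RAG1, was 1141 to 1698 CPM in the 6 shHP1γ libraries against 1551 to 1820 CPM in the 6 shNS libraries and 2074 to 2930 CPM in the 12 of shG9a and shGLP. The part of either in the results on the MAPK regulators was not tested. In bulk RNA, a change in the share of cells that carry a transcript and a change in its amount per cell cannot be told apart. As a check of dex exposure, the glucocorticoid receptor targets FKBP5 and TSC22D3 (NM_004089) rose in all 4 populations, by log2 fold changes of 1.09 to 1.75 and 3.22 to 3.89. No test of a targeted transcript passed: EHMT1 NM_001354259 averaged 2.62 ± 0.837 CPM (SD, n = 3) in shGLP ethanol libraries against 4.08 ± 0.459 in shNS, and CBX3 NM_016587 averaged 2.37 ± 0.683 CPM in shHP1γ dex libraries against 3.65 ± 0.450, with edgeR adjusted p values of 0.0923 and 0.142. The other rows were weaker, with log2 differences of -0.37 for EHMT1 in dex (adjusted p = 0.410), -0.50 for CBX3 NM_016587 in ethanol (0.277), and -0.15 in dex and -0.30 in ethanol for CBX3 NM_007276 (0.842 and 0.644). EHMT2 was not analysed here. For these cells the authors reported efficient loss of both protein and mRNA of G9a, GLP and HP1γ, by immunoblot and RT-qPCR.

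Among the phosphatases, DUSP1, DUSP2, DUSP4 and DUSP5 encode inducible enzymes of the nucleus, DUSP6 encodes a cytoplasmic phosphatase selective for ERK, and DUSP10 encodes a phosphatase that prefers JNK and p38. In GENCODE annotation of GRCh37, the build the authors mapped to, DUSP1 lies on the minus strand at chr5:172195099-172198198, DUSP6 on the minus strand at chr12:89741012-89746278, DUSP10 on the minus strand at chr1:221874766-221915431, SPRY2 on the minus strand at chr13:80910111-80915261 and SPRED1 on the plus strand at chr15:38545037-38649450. DUSP1 and DUSP6 each overlap an antisense long non-coding RNA, and SPRED2 overlaps one on its own strand. These are overlaps of whole gene spans, and whether counted bases are shared was not examined. The handling of strand in the counting is not given in the sources used here. Reads from any bases shared with the antisense RNAs may therefore not be told apart, and strand cannot separate the SPRED2 pair.

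The 250 bases before the transcription start are shown for DUSP10, DUSP6 and SPRY2, the 3 members called in 4 comparisons each, and for DUSP1, whose protein is the best known dex-inducible MAPK phosphatase of other tissues. The sequences are from RefSeq on GRCh38.p14, a different build from that of the counts, 5′ to 3′ on the minus strand, and where the table lists several starts the most upstream is shown. Capitals mark matches on either strand to any of 7 motifs, of which 4 occur here: the CCAAT box (CCAAT, in 32% of 35116 promoters of this length), the cyclic AMP response element (TGACGTCA, 1.65%), the E-box (CACGTG, 6.34%) and the TATA motif (TATAAA, 10.7%). None of the motifs overlap each other in these windows.
DUSP10, chr1:221742090-221742339: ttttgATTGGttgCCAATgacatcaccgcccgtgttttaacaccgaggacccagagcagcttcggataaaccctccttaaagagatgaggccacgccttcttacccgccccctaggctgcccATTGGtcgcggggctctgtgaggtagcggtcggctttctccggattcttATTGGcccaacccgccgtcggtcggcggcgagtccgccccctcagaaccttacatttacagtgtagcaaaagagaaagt
DUSP6, chr12:89352502-89352751: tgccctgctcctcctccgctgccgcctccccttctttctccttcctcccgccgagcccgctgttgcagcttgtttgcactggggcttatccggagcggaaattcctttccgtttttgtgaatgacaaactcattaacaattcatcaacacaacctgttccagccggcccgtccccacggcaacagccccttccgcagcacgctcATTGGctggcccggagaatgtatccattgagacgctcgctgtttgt
SPRY2, chr13:80341127-80341376: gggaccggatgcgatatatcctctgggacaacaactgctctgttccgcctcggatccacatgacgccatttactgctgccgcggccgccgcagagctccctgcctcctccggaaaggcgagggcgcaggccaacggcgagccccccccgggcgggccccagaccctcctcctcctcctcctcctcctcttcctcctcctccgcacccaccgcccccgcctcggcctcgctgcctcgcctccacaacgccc
DUSP1, chr5:172771196-172771445: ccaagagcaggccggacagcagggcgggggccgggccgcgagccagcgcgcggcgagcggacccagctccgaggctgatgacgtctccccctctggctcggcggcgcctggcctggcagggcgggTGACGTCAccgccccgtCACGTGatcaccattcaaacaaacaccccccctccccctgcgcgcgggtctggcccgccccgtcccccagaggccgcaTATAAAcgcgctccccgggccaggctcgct
The DUSP10 window held 4 CCAAT-box matches and the DUSP6 window 1. The DUSP1 window held a cyclic AMP response element, an E-box and a TATA motif, starting 125, 108 and 30 bases before the start. The SPRY2 window shown held no match to any motif searched, but each of the windows of the 2 other SPRY2 starts in the table held 1 AGAACA site, beginning 108 and 38 bases before those starts. The window of the other DUSP10 start held no match. The glucocorticoid receptor palindrome (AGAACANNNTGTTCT) was in none of the 4 windows and in 1 of all 35116 promoters, and the ETS motif (CCGGAAGT, 3.42%) and the receptor's single AGAACA site (12.4%), which the palindrome contains, were also in none of the 4. A match describes letters only, and no match says only that they are not in these bases.

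**Figure D1:**
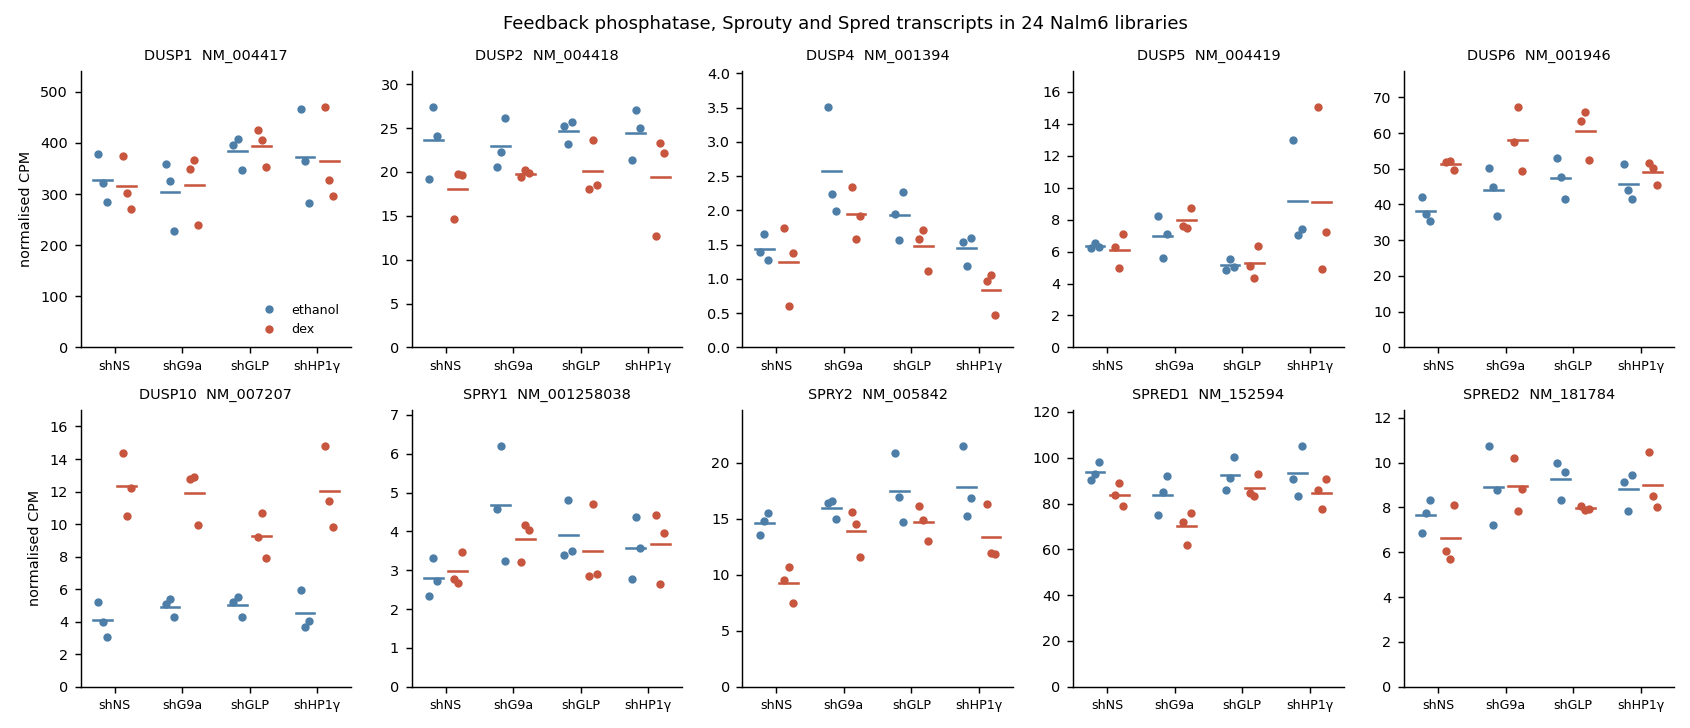
Normalised CPM (linear axes from 0, a scale of its own for each panel) of the most abundant tested transcript of each gene in all 24 libraries; points are libraries, lines are means of 3, blue is ethanol and red is dex. DUSP10 is the only panel in which the 12 dex libraries (7.93 to 14.8) all lie above the 12 ethanol libraries (3.06 to 5.97).

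In shNS cells, dex changed 3 of the 12 tested transcripts, against 9.95% of all tested transcripts: DUSP10 and DUSP6 rose and SPRY2 fell. The median log2 fold change of the 12 transcripts was -0.11, and that of all tested transcripts -0.03. DUSP10 was the only one of the 12 to change by at least 2-fold.

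DUSP10 rose with dex in all 4 populations, and its fold change was the largest among the called transcripts of the 12 in each. In the shNS libraries of replicates 1, 2 and 3 its level was 5.21, 3.96 and 3.06 CPM in ethanol and 14.4, 10.5 and 12.2 CPM in dex. The shG9a libraries had 5.08, 5.42 and 4.30 CPM in ethanol and 12.8, 12.9 and 9.97 CPM in dex. Ethanol and dex libraries did not overlap in either population, and each dex library was above the ethanol library of the same replicate. The shGLP libraries had 5.24, 5.55 and 4.26 CPM in ethanol and 9.22, 10.7 and 7.93 CPM in dex. The shHP1γ libraries had 5.97, 3.67 and 4.01 CPM in ethanol and 14.8, 11.4 and 9.80 CPM in dex. Here too the treatments did not overlap, and the 3 shGLP dex libraries included the lowest of all 12 dex libraries.

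The dex response of DUSP10 was 3.05-fold in shNS (95% interval 2.43 to 3.84, log2 1.61, SE 0.16), with an edgeR adjusted p of 1.34e-07. It was 2.40-fold in shG9a (1.92 to 3.00, adjusted p = 9.0e-06), 1.85-fold in shGLP (1.47 to 2.34, adjusted p = 0.00153) and 2.63-fold in shHP1γ (2.09 to 3.31, adjusted p = 2.95e-06), where 3 of 12, 2 of 12 and 1 of 12 transcripts were called against 6.24%, 3.29% and 3.22% of all tested. The shGLP call did not hold without replicate 3 in every group (adjusted p = 0.123), where the log2 fold change was 0.89. In that fit 0.875% of all tested transcripts were called for dex in shGLP. The 3 other DUSP10 calls held under all 17 alternatives run for each.

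Whether the response itself differed from shNS was tested as an interaction. For DUSP10 the dex effect was lower by 0.72 on the log2 scale in shGLP (interval -1.20 to -0.24, edgeR adjusted p = 0.697), and the estimates for shG9a and shHP1γ were -0.35 (interval -0.81 to 0.12) and -0.21 (interval -0.69 to 0.26). No interaction of the 12 transcripts was called with shG9a, shGLP or shHP1γ by edgeR or DESeq2, beside 0.0885%, 0.118% and 0.0197% of all tested transcripts in edgeR. At an unadjusted p under 0.05, 1, 2 and 1 of the 12 were found, beside 6.75%, 3.89% and 3.81% of all tested transcripts. In dex-treated cells compared directly, DUSP10 was 0.752 times the shNS level in shGLP (interval 0.611 to 0.926, adjusted p = 0.113), 0.960 times in shG9a and 0.964 times in shHP1γ. None of these passed the test, although the shGLP difference did in 3 alternatives: with only the compared groups fitted (adjusted p = 0.0453), without replicate 2 (0.0328) and without the shNS dex library of replicate 2 (0.0490).

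**Figure D2:**
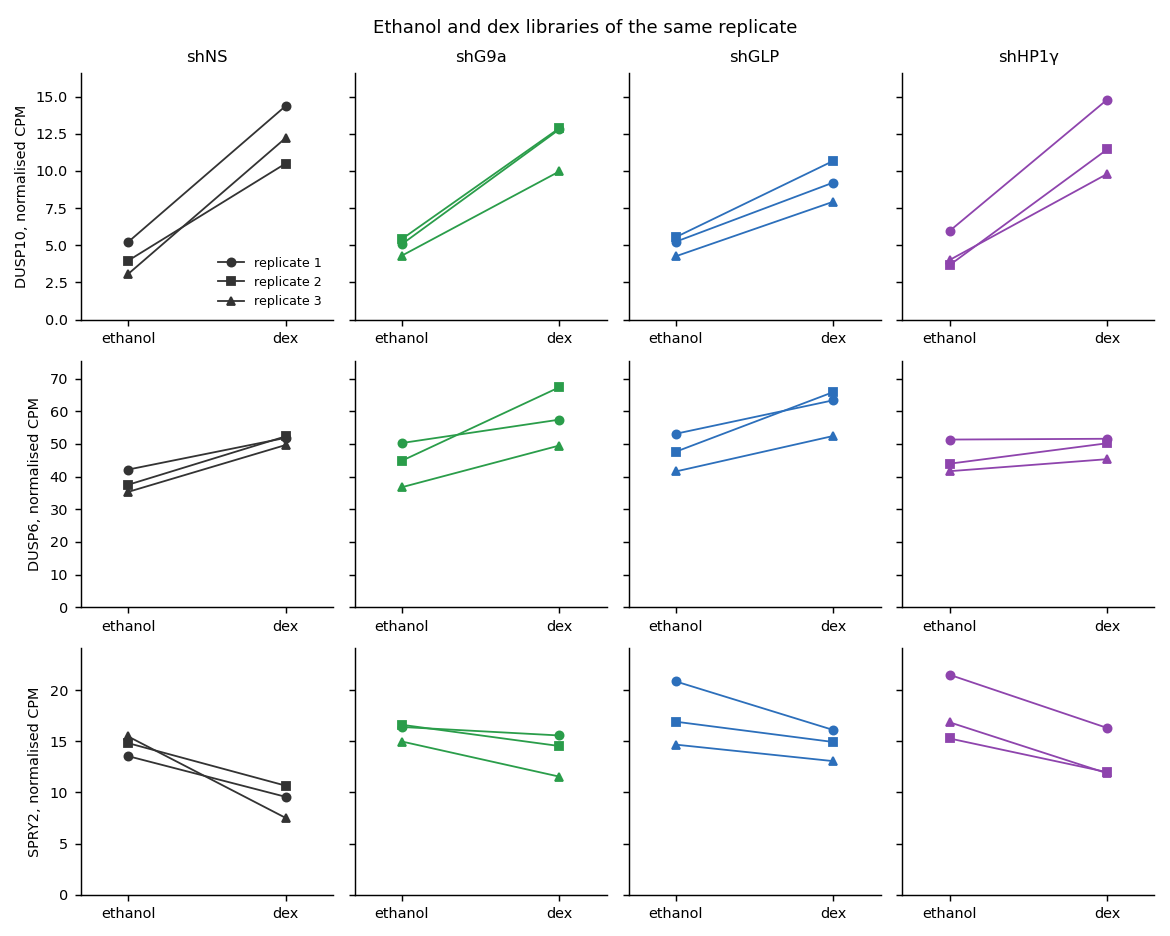
Normalised CPM of DUSP10, DUSP6 and SPRY2 in ethanol and dex, with a line joining the libraries of the same replicate; columns are the 4 populations and each row has 1 linear axis from 0. All 12 DUSP10 lines and all 12 DUSP6 lines rise and all 12 SPRY2 lines fall, the DUSP6 line of shHP1γ replicate 1 by the least (51.3 to 51.6).

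DUSP6, the ERK phosphatase, rose with dex in shNS, shG9a and shGLP. Its shNS libraries had 42.1, 37.5 and 35.3 CPM in ethanol and 51.8, 52.3 and 49.6 CPM in dex, without overlap. The shG9a libraries had 50.3, 44.8 and 36.7 CPM in ethanol and 57.4, 67.4 and 49.5 CPM in dex. The treatments overlapped in shG9a, where the dex library of replicate 3 was below the ethanol library of replicate 1, but within each replicate dex was higher. The shGLP libraries had 53.1, 47.6 and 41.6 CPM in ethanol and 63.4, 65.9 and 52.4 CPM in dex, and the shHP1γ libraries had 51.3, 43.9 and 41.6 CPM in ethanol and 51.6, 50.2 and 45.3 CPM in dex. Both of these populations overlapped between treatments.

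The DUSP6 response was 1.34-fold in shNS (interval 1.19 to 1.51, edgeR adjusted p = 0.00109), 1.33-fold in shG9a (1.18 to 1.49, adjusted p = 0.00273) and 1.28-fold in shGLP (1.14 to 1.44, adjusted p = 0.0130). In shHP1γ it was 1.08-fold (0.955 to 1.21, adjusted p = 0.662), and the interaction with shHP1γ was -0.32 on the log2 scale (interval -0.56 to -0.08, edgeR adjusted p = 1.00), which does not show a difference from shNS. In ethanol, DUSP6 was 1.24-fold higher in shGLP than in shNS (interval 1.10 to 1.39, adjusted p = 0.0415), the only 1 of 12 transcripts called there, beside 3.61% of all tested. In dex-treated cells the 3 depletions gave 1.13, 1.18 and 0.954 times the shNS level for shG9a, shGLP and shHP1γ, none of them called. The DUSP6 calls were less firm than those of DUSP10. Without the replicate block the adjusted p was 0.0572 in shNS, 0.0998 in shG9a and 0.284 in shGLP, and without replicate 3 of every group it was 0.0852, 0.115 and 0.246. Without replicate 2 of every group the shG9a and shGLP calls were lost as well (0.0939 and 0.121). With only the compared groups fitted the shG9a value was 0.151, with no filter on low counts the shGLP value was 0.0878, and without single shGLP libraries (ethanol replicate 2 or 3, dex replicate 2) the dex call in shGLP had an adjusted p of 0.0782 to 0.114. The ethanol difference in shGLP was lost in 12 of 17 alternatives, including TMM scaling (0.0595), no filter (0.447), no block (0.403) and leaving out any 1 of the 6 libraries compared (0.0789 to 0.240).

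SPRY2 encodes an adaptor that restrains Ras and Raf activation below receptor tyrosine kinases. It was the only member with a called fall in dex-treated shNS cells, and the only one called higher in dex-treated cells of all 3 depleted populations than in shNS. Its shNS libraries had 13.6, 14.8 and 15.5 CPM in ethanol and 9.58, 10.7 and 7.52 CPM in dex, so that the 3 dex libraries were the lowest of all 24. In dex, the shG9a libraries had 15.6, 14.5 and 11.5 CPM, the shGLP libraries 16.1, 14.9 and 13.1 CPM and the shHP1γ libraries 16.3, 12.0 and 11.9 CPM. Every depleted dex library was above every shNS dex library. In ethanol, the shG9a libraries had 16.4, 16.6 and 15.0 CPM, the shGLP libraries 20.8, 16.9 and 14.7 CPM and the shHP1γ libraries 21.5, 15.3 and 16.9 CPM. These overlapped the shNS ethanol libraries in shG9a, shGLP and shHP1γ alike.

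In shNS, SPRY2 was 0.628 times its ethanol level with dex (interval 0.516 to 0.765, log2 -0.67, SE 0.14, edgeR adjusted p = 0.00170). The factors in shG9a, shGLP and shHP1γ were 0.864 (0.717 to 1.04, adjusted p = 0.388), 0.845 (0.699 to 1.02, adjusted p = 0.420) and 0.746 (0.619 to 0.901, adjusted p = 0.0887), lower in 3 of 3 replicates each time. The interactions were 0.46 (interval 0.07 to 0.85, adjusted p = 0.645) with shG9a, 0.43 (0.03 to 0.82, adjusted p = 1.00) with shGLP and 0.25 (-0.14 to 0.64, adjusted p = 1.00) with shHP1γ on the log2 scale in edgeR, so a smaller fall in the depleted populations was not shown. Without replicate 3 the shNS fall was -0.48 on the log2 scale with an adjusted p of 0.238, and under the 16 other alternatives it held. The shHP1γ fall passed with only the compared groups fitted (edgeR adjusted p = 0.0139) and without the shHP1γ ethanol library of replicate 2 (0.04999).

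Between dex-treated populations, SPRY2 was 1.5-fold higher in shG9a than in shNS (interval 1.23 to 1.83, edgeR adjusted p = 0.00845), 1.59-fold higher in shGLP (1.3 to 1.94, adjusted p = 0.00295) and 1.44-fold higher in shHP1γ (1.18 to 1.76, adjusted p = 0.0293). In these 3 comparisons 2, 2 and 1 of the 12 transcripts were called, against 8.8%, 5.77% and 4.09% of all tested. All of them, and the dex comparison in shNS, use the same 3 shNS dex libraries, so that a low value there enters each. The shGLP call was lost without replicate 3 of every group (adjusted p = 0.147), and the shG9a call without replicate 3 of every group (0.132), without the shNS dex library of replicate 3 alone (0.0616), without the block (0.0608) or with only the compared groups fitted (0.102). The shHP1γ call was lost in 9 of 17 alternatives, among them leaving out the shNS dex library of replicate 1 or 3 or the shHP1γ dex library of replicate 1 or 3 (adjusted p = 0.0617 to 0.157). In ethanol the 3 depletions gave 1.09, 1.18 and 1.21 times the shNS level, none of them called. The second tested SPRY2 accession, NM_001318536, had 1 to 19 counts per library and was not called in any comparison.

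**Figure D3:**
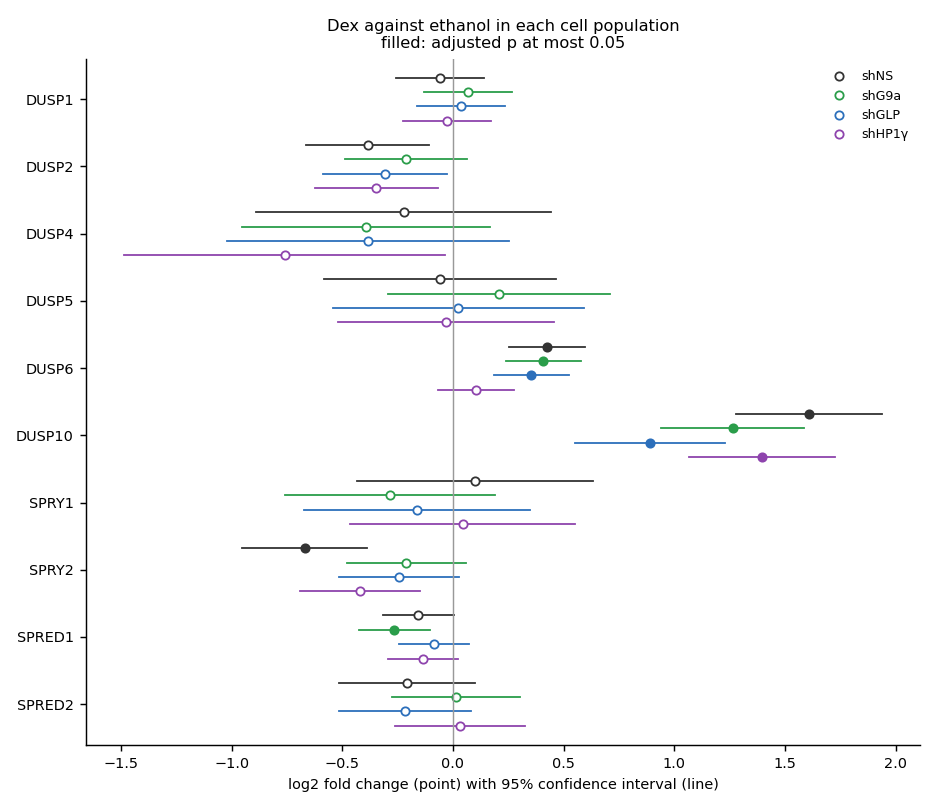
Log2 fold change of dex against ethanol (points, with 95% confidence intervals) for the most abundant tested transcript of each gene in the 4 populations; filled points have an edgeR adjusted p of at most 0.05. DUSP10 is filled in all 4 populations, DUSP6 in 3, SPRY2 in shNS and SPRED1 in shG9a.

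DUSP1, the broad MAPK phosphatase known as a glucocorticoid-induced gene in other cell types, did not pass the test for dex in any population. Its shNS libraries had 377, 321 and 284 CPM in ethanol and 374, 302 and 271 CPM in dex, and the treatments overlapped in all 4 populations. The dex effect was 0.962-fold in shNS (interval 0.838 to 1.10), 1.05-fold in shG9a (0.914 to 1.20), 1.03-fold in shGLP (0.895 to 1.18) and 0.983-fold in shHP1γ (0.856 to 1.13), so each interval excluded a change of as much as 1.3-fold. Within each of the 8 groups, the library of replicate 3 was the lowest for DUSP1, at 228 to 353 CPM. In dex-treated cells, DUSP1 was 1.26-fold higher in shGLP than in shNS (interval 1.10 to 1.45, edgeR adjusted p = 0.0403), with shGLP dex libraries at 426, 405 and 353 CPM. The shGLP and shNS dex libraries overlapped, and the difference was higher in 3 of 3 replicates. The call was lost in 10 of 17 alternatives, including TMM scaling (adjusted p = 0.0843), no block (0.596) and leaving out any shNS dex library or the shGLP dex library of replicate 2 or 3 (0.0862 to 0.231). In ethanol, DUSP1 in shGLP was 1.18 times the shNS level (interval 1.03 to 1.35, edgeR adjusted p = 0.239), higher in 3 of 3 replicates. With only the compared groups fitted, that ethanol difference passed the test (adjusted p = 0.00368). The interaction of dex with shGLP was 0.09 on the log2 scale (interval -0.19 to 0.37), so a difference particular to dex was not shown.

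DUSP2, an inducible nuclear phosphatase of lymphoid cells, had lower means with dex in all 4 populations and was not called in any. Its shNS libraries had 19.2, 27.4 and 24.1 CPM in ethanol and 14.6, 19.8 and 19.6 CPM in dex, overlapping but lower with dex in 3 of 3 replicates. The factors were 0.765 in shNS (interval 0.631 to 0.928, edgeR adjusted p = 0.0754), 0.863 in shG9a, 0.808 in shGLP and 0.787 in shHP1γ. With no filter on low counts and with only the compared groups fitted, the shNS difference passed the test, at adjusted p values of 0.0409 and 0.00248.

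DUSP4 and DUSP5, the other inducible nuclear phosphatases, were measured at 0.471 to 3.51 CPM and 4.34 to 15.1 CPM and were not called in any of the 13 comparisons. DUSP4 had 5 to 36 counts per library, and its dex intervals were wide, from 0.540 to 1.36 times in shNS and from 0.357 to 0.975 times in shHP1γ. Its highest ethanol mean was in shG9a, at 2.58 ± 0.819 CPM (SD, n = 3), against 1.44 ± 0.196 CPM in shNS, a factor of 1.76 (interval 1.17 to 2.66, edgeR adjusted p = 0.135). DUSP5, which is selective for ERK, spread most in shHP1γ. The replicate 1 libraries of shHP1γ had 13 CPM in ethanol and 15.1 CPM in dex, above the other 22 libraries, which reached 8.75 CPM. The DUSP5 difference of shHP1γ from shNS was 1.43-fold in dex (interval 1.01 to 2.03, adjusted p = 0.307).

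The second Sprouty gene, SPRY1, was not called on either tested accession. SPRY1 NM_001258038 ran from 2.35 to 6.2 CPM over all libraries. Its shG9a ethanol libraries had 4.59, 6.2 and 3.23 CPM against 2.35, 3.31 and 2.72 CPM in shNS ethanol, overlapping at their edges, a factor of 1.66 (interval 1.17 to 2.35, edgeR adjusted p = 0.108). That difference passed the test with only the compared groups fitted (adjusted p = 0.0318) or without the shG9a ethanol library of replicate 3 (0.0434). The intervals of its dex effect ran from 0.741 to 1.55 times in shNS and from 0.590 to 1.14 times in shG9a.

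The Spred genes encode membrane-bound relatives of Sprouty that bring neurofibromin to Ras. SPRED1 was called lower with dex in shG9a only, and was called lower in dex-treated shG9a than in shNS, both by small amounts. Its shG9a libraries had 75, 84.9 and 92.0 CPM in ethanol and 72.1, 62.0 and 75.9 CPM in dex, and its shNS libraries had 90.3, 92.8 and 98.0 CPM in ethanol and 83.6, 88.9 and 79.2 CPM in dex. The shG9a dex libraries lay below all 3 shNS dex libraries but overlapped those of shG9a ethanol. With dex, SPRED1 was 0.898-fold in shNS (interval 0.804 to 1.00), 0.942-fold in shGLP and 0.910-fold in shHP1γ. None of these was called, and each was lower in 3 of 3 replicates. In shNS the treatments did not overlap, and the fall passed with only the compared groups fitted (edgeR adjusted p = 0.0379). The interaction with shG9a was -0.11 on the log2 scale (interval -0.33 to 0.12), so a fall particular to shG9a was not shown. The dex effect in shG9a was 0.833-fold (interval 0.745 to 0.931, edgeR adjusted p = 0.0436) and the difference of shG9a from shNS in dex was 0.831-fold (0.743 to 0.928, adjusted p = 0.0326). The first was lost in 12 of 17 alternatives, with adjusted p values up to 0.490, and the second in 10 of 17, up to 0.494. Leaving out the shG9a dex library of replicate 2, the lowest SPRED1 value of all 24, gave 0.258 and 0.178. Leaving out either of the shG9a ethanol libraries of replicates 2 and 3 (0.196 and 0.161) or the shG9a dex library of replicate 3 (0.0657) ended the first call, and leaving out the shNS dex library of replicate 1 or 2 (0.113 and 0.231) or the shG9a dex library of replicate 3 (0.0532) ended the second.

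SPRED2 did not pass the test in any comparison. In dex it was 1.35-fold higher in shG9a than in shNS (interval 1.10 to 1.66, edgeR adjusted p = 0.0652) and 1.36-fold higher in shHP1γ (1.10 to 1.67, adjusted p = 0.0945), with shNS dex libraries at 6.08, 5.68 and 8.08 CPM. Both groups overlapped with shNS through the shNS library of replicate 3. Without that library both differences passed the test, at adjusted p values of 0.0320 and 0.0447. The shG9a difference also passed with a mean of at least 5 CPM (edgeR adjusted p = 0.0389).

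**Figure D4:**
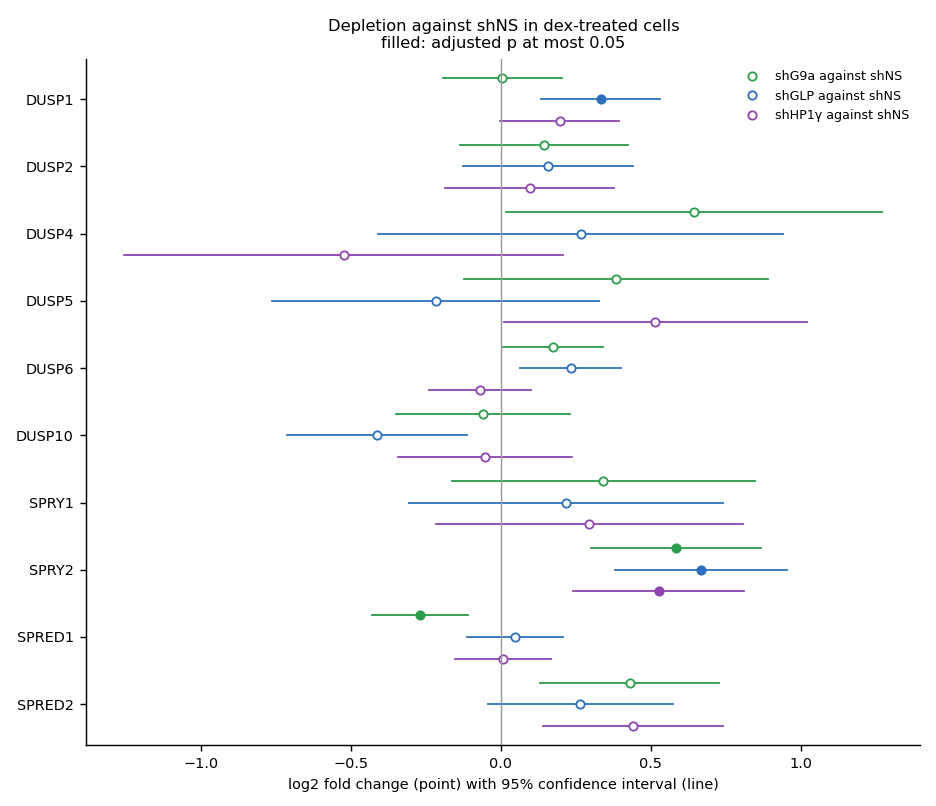
Log2 fold change of each depletion against shNS in dex-treated cells (points, with 95% confidence intervals) for the most abundant tested transcript of each gene; filled points have an edgeR adjusted p of at most 0.05. SPRY2 is filled above 0 for all 3 depletions (0.58, 0.67 and 0.53), DUSP1 for shGLP (0.33) and SPRED1 below 0 for shG9a (-0.27); the 3 comparisons share the shNS dex libraries.

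In ethanol-treated cells the 12 transcripts gave no call with shG9a or shHP1γ by edgeR or DESeq2, beside 3.73% and 2.91% of all tested transcripts in edgeR, and 4 and 2 of the 12 had an unadjusted p under 0.05, beside 15.2% and 14.4% of all tested transcripts. The medians of their log2 fold changes were 0.16 and 0.18, and those of all tested transcripts were -0.02 and 0.02.

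Related regulators of the same cascades were examined as lists. Their calls, unlike those of the members, were not rechecked under the alternatives. Of 12 other MAPK phosphatase genes, 7 were tested, and dex changed only DUSP7, an ERK phosphatase, in shNS, where it fell from 199 ± 17.2 to 171 ± 10.3 CPM (edgeR adjusted p = 0.0439). DUSP7 was lower in shG9a than in shNS in both treatments (log2 -0.26 in dex and -0.40 in ethanol) and higher in shGLP in dex (0.25). STYX, a catalytically inactive relative, was higher in shGLP in dex (log2 0.48, adjusted p = 0.0493). Of the 3 other Sprouty and Spred genes, SPRY3 was the only one tested and was not called.

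Of 5 tested genes among 15 listed as transcriptional outputs of ERK, PHLDA1 and IER2 fell with dex in all 4 populations. ETV5 was not called with dex in any population, and the remaining tested genes of this list were not called in any contrast. PHLDA1 averaged 36.7 ± 6.42 CPM (SD, n = 3) in shNS ethanol and 13.2 ± 0.601 CPM in shNS dex (log2 -1.46, edgeR adjusted p = 1.3e-07), and IER2 averaged 170 ± 14.3 and 107 ± 3.55 CPM (log2 -0.66, adjusted p = 4.34e-07). In dex-treated cells, shHP1γ had higher PHLDA1 (log2 1.52), IER2 (0.72) and ETV5 (0.94) than shNS, and shG9a had higher values of all 3 (0.58, 0.37 and 0.62). In shGLP, IER2 (0.45) and ETV5 (0.67) were higher. In ethanol, PHLDA1, IER2 and ETV5 were likewise higher in shHP1γ (0.80, 0.51 and 0.89) and ETV5 in shG9a (0.73), whereas PHLDA1 was lower in shGLP (-0.68, adjusted p = 0.00371). ETV5 spread widely in shHP1γ, at 110 ± 56.6 CPM in dex against 55.2 ± 11.6 in shNS, and 124 ± 56.1 CPM in ethanol against 64.4 ± 5.79. The 3 comparisons in dex share the shNS dex libraries with those of SPRY2.

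Of 18 JNK and p38 pathway genes, 12 were tested. With dex in shNS, MAP3K5, a stress-activated kinase upstream of both, rose (log2 0.75, edgeR adjusted p = 0.000411) and MAP2K6, which activates p38, fell (log2 -0.71, adjusted p = 0.00124). DUSP10, which encodes a phosphatase of JNK and p38, rose in the same cells. MAP2K6 also fell with dex in shG9a (-0.47). It was higher in dex-treated shG9a, shGLP and shHP1γ than in shNS (0.87, 1.06 and 0.84) and in ethanol-treated shG9a and shGLP (0.62 and 0.55), whereas MAP3K5 was lower in dex-treated shG9a and shHP1γ (-0.52 each). MAP3K1, another upstream kinase, was higher in shG9a, shGLP and shHP1γ in dex (0.26, 0.32 and 0.25) and in ethanol (0.40, 0.31 and 0.28), and MAPK11, a p38 isoform, was higher in shG9a in ethanol (0.77). Of 18 Raf, MEK and ERK genes, 12 were tested, and with dex in shNS RPS6KA1, a kinase activated by ERK, rose (0.47, adjusted p = 0.00745) and none fell. Its relative RPS6KA3 fell with dex in shG9a (-0.27), and was higher in shG9a, shGLP and shHP1γ in dex (0.30, 0.35 and 0.27) and in shG9a and shGLP in ethanol (0.37 and 0.31). BRAF was lower in shG9a in dex and in ethanol (-0.55 and -0.30). Of 20 receptor, adaptor and Ras genes, 11 were tested, and RASAL3, a Ras GTPase-activating protein, rose with dex in shNS (0.26, adjusted p = 0.0467) and shG9a (0.31) and was lower in shG9a in both treatments (-0.61 in dex and -0.66 in ethanol). SOS2, a Ras exchange factor, was lower in shHP1γ in both treatments (-0.46 in dex and -0.48 in ethanol), and LZTR1 rose with dex in shG9a (0.26).

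Likeness of pattern was described by Pearson's r of log2 CPM over the 8 group means, among 5606 accessions with a mean of at least 5 CPM. DUSP10 was most like CD69 (0.987), FKBP5 (0.980) and RAPGEF5 (0.979), and SPRY2 was most like PABPN1 (0.980), WDR82 (0.977) and RRS1 (0.973). DUSP6 had lower values with its nearest transcripts, ASH1L (0.941), LOC100134368 (0.938) and SLC12A9 (0.935). DUSP1 was most like ACSL5 (0.987), TOP2A (0.979) and KIF20A (0.977), and DUSP2 most like FARSA (0.989), CLUH (0.986) and NDUFA9 (0.985). DUSP5 was most like ZNF777 (0.966), ZNF425 (0.964) and VSIG10L (0.955). SPRED1 was most like POLR2E (0.990), LOC441454 (0.986) and BCAS2 (0.985), and ADGRA2 (0.969) and RNF114 (0.968) were among the 3 most like SPRED2. DUSP4 and SPRY1 were below 5 CPM. The 8 points share libraries and normalization, and with so few points and so many transcripts high values are common.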

How the data were processed

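RNA-sequencing reads of the 24 libraries were, by the authors, mapped to hg19 (GRCh37) with HISAT2 and counted on RefSeq transcripts with GenomicAlignments. The deposited table holds raw counts, as whole numbers whose library totals differ (median 11132064.5), although it is named for CPM. The mode of counting and the use of strand are not given in the sources used here. A second deposited table, with the authors' log fold changes and adjusted p values of their comparisons, was used for gene symbols only.

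Counts were tested with edgeR 4.0.16 in R 4.3.3. Transcripts with more than 1 CPM in at least 2 libraries (10167) were kept, library sizes were scaled by upper quartile, and all 24 libraries were fitted by group with the replicate number as a block. Contrasts were tested by the quasi-likelihood F test with Benjamini-Hochberg adjustment over all tested transcripts, and a transcript was called at an adjusted p of at most 0.05. The 13 contrasts were dex against ethanol in each population, each depletion against shNS in each treatment, and the interaction of dex with each depletion. Normalised CPM are counts relative to the scaled library size, and intervals are 95% confidence intervals of the fit. In this fit, p values rest on the spread left among libraries once group means and the shift shared by each replicate number are removed. That spread was estimated over all 24 libraries, not within the compared groups alone.

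Same-numbered libraries of different groups deviated from their group means together in most of the 84 pairs of libraries checked (correlation across transcripts -0.0025 to 0.639, median 0.200, above 0.1 in 70). No 2 replicates of a group agreed within sampling noise (chi-squared per degree of freedom 3.27 to 36.2). With the shG9a dex library of replicate 2 the values were 23.5 and 36.2, against 7.14 for the other pair of that group. With the shHP1γ libraries of replicate 1 they were 18.2 and 24.8 in ethanol (8.79 for the other pair) and 24.3 and 25.2 in dex (4.18). The first of these libraries held the lowest SPRED1 and the highest DUSP6 value, and the others the highest DUSP5 values. The part of this in the member results was not tested.

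On counts simulated for dex in shNS over 10167 transcripts, the same fit called 26%, 50%, 80% and 90% of 50 transcripts each changed by 1.3, 1.5, 2 and 3-fold, and 6 of 129 calls were false. The simulated counts had no replicate effect and a spread set by mean level alone, so the rates in the real data may differ.

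The members and gene lists were chosen with earlier results of these data known. Named are all members, the depleted genes, dex reference genes, for each pathway list at most 6 genes called in any contrast, and for each member with a mean of at least 5 CPM the 3 most similar transcripts, except a few that are not reported here. The lists were other MAPK phosphatases, other Sprouty and Spred genes, receptor, adaptor and Ras genes, Raf, MEK and ERK genes, JNK and p38 kinases, ERK outputs, and B-cell precursor, T-cell, myeloid, erythroid and epithelial markers. Alternatives were TMM scaling, no filter on low counts, a mean of at least 5 CPM, no block, DESeq2 1.42.0, only the compared groups, counts summed per gene, a RUV factor in place of the block, and leaving out each replicate or library. They were read for the member transcripts and for the number called over all transcripts, not for the genes of the pathway lists.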

Additional observations from a re-analysis of the deposited data

How the results depend on the processing

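No member's difference changed direction as a call under any of the alternatives. Of the recomputed differences of single member transcripts, 2688 stayed on the same side of the threshold, 73 lost the call and 16 gained it. The counts of the 12 member transcripts called that moved by more than 1.5 times were as follows. Without the replicate block, they were 1 for dex in shG9a, 1 for dex in shGLP, 0 for shG9a in dex, 1 for shGLP in dex, 0 for shHP1γ in dex and 0 for shGLP in ethanol. With only the compared groups fitted, they were 5 for dex in shNS, 1 in shG9a and 2 in shHP1γ, 0, 4 and 0 for shG9a, shGLP and shHP1γ in dex, and 1 and 2 for shG9a and shGLP in ethanol. With no filter on low counts, they were 1 for dex in shGLP, 1 for shG9a in dex, 0 for shHP1γ in dex and 0 for shGLP in ethanol. TMM scaling gave 1 for shGLP in dex and 0 for shGLP in ethanol, and a mean of at least 5 CPM gave 1 for shGLP in dex. Smaller moves were from 3 to 2 without the block and 3 to 4 with no filter for dex in shNS, from 2 to 3 with a mean of at least 5 CPM for shG9a in dex, and from 3 to 2 with TMM, no filter, 5 CPM or RUV for dex in shG9a. DESeq2 and counts summed per gene gave the same counts as edgeR in all 13 contrasts.

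With each replicate or library left out in turn, the counts ran from 1 to 3 for dex in shNS, 1 to 3 in shG9a, 0 to 2 in shGLP and 1 to 2 in shHP1γ. They ran from 0 to 2 for shG9a, 0 to 2 for shGLP and 0 to 1 for shHP1γ in dex, from 0 to 1 for shG9a, 0 to 0 for shGLP and 0 to 0 for shHP1γ in ethanol, and stayed at 0 for the 3 interactions. A fit with fewer libraries has less power by construction. Over all transcripts, the calls fell in some of these fits and rose in others. For dex in shG9a they were 634 in the main fit, 156 without replicate 3 of every group and 845 without the shG9a dex library of replicate 1. The causes were not tested.

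Over all transcripts, the replicate block raised the calls: without it 518, 227, 147 and 159 were called for dex in shNS, shG9a, shGLP and shHP1γ in place of 1012, 634, 334 and 327, then 320, 269 and 175 for shG9a, shGLP and shHP1γ in dex in place of 895, 587 and 416, and 112, 171 and 66 in ethanol in place of 379, 367 and 296. With only the compared groups fitted, the corresponding counts were 2207, 145, 971 and 1110, then 167, 1295 and 209, and 820, 848 and 132. Without replicate 3 of every group they were 309, 156, 86 and 98, then 166, 165 and 63, and 28, 98 and 40. Intervals spanned more than 2-fold in most contrasts for DUSP4, DUSP5, SPRY1 and the minor SPRY2 accession, the tested member transcripts with the lowest mean counts. The part of depth in this was not tested.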
